A study of Mus musculus with 4 samples.

Results

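Aminoacyl-tRNA synthetases are the enzymes that join each amino acid to its transfer RNA. The set described here holds 35 mouse genes, matched by symbol among the 24411 genes counted, of which 20 encode cytosolic enzymes and 15 mitochondrial ones. Lars2, one of the 15, drew so many reads that it was counted apart, which left 14 mitochondrial genes. All 35 had enough reads to be tested. The samples were BV2 cells, an immortalised line of mouse microglia, and every library came from cells in which PU.1 (encoded by Spi1) was targeted with CRISPR-Cas9 and whose genotype is labelled as a knockout. One group of 2 libraries received lipopolysaccharide (LPS), an outer membrane component of Gram-negative bacteria that TLR4 senses, at 10 ng/ml, and the other 2 libraries were untreated. The LPS exposure is 4 h in the titles and 2 h in the source names. The sources used here do not say whether the knockout cells were 1 clone, and no wild-type cells were analysed here, so what follows concerns LPS in the targeted cells only.

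Synthetases are among the most conserved proteins known. Mitochondria make their own small set of proteins and need their own charging enzymes, which nuclear genes encode and the cytosol delivers. Most amino acids therefore have a cytosolic and a mitochondrial enzyme from separate genes, while Gars and Kars each give rise to both forms. In the cytosol several synthetases are held together in the multi-synthetase complex with scaffold proteins. Transcription of many cytosolic synthetase genes is known to rise with the factor ATF4, which is made when amino acids run short or the endoplasmic reticulum is stressed, and Wars, the tryptophan enzyme, is known as a target of interferon-gamma in other cells.

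Gene counts totalled 3256197 and 3749159 in the LPS libraries, against 4502105 and 4115011 in the untreated libraries. Spi1 mRNA was still found, at 745 and 958 reads in LPS libraries, against 844 and 743 reads in untreated libraries. Given as CPM with TMM factors, its level was higher after LPS, at 258 and 291 in LPS libraries, against 161 and 164 in untreated libraries (log2 fold change 0.75, SE 0.09, edgeR adjusted p = 8.8e-10). Counts per gene do not show the edit. Of 10 markers of microglia and macrophages 9 were tested, of which 6 rose and 2 fell, beside 26.6% higher and 25.3% lower over all genes tested. The summed CPM of the 10 markers was 4589 and 4865 in LPS libraries, against 2627 and 2644 in untreated libraries. Lyz2 alone held 2370 and 2560 CPM of it in LPS libraries, against 1044 and 1006 CPM in untreated libraries. The 2 markers that fell were Tmem119 (log2 fold change -1.78) and Csf1r (-0.21). The microglial marker P2ry12 was too low to test (mean 0.173 CPM in LPS and 1.92 CPM in untreated cells). The endothelial list summed to 49.9 and 34.002 CPM in LPS libraries, against 22.8 and 23.2 CPM in untreated libraries, with Pecam1 at 0. Within it Kdr rose to a mean of 28.4 CPM in LPS cells, against 14.5 CPM in untreated cells (log2 fold change 0.96). Vwf averaged 13.4 CPM in LPS and 8.45 CPM in untreated cells and did not pass the threshold given below. Cdh5 reached at most 0.304 CPM. The fibroblast, astrocyte, neuron, oligodendrocyte, lymphocyte and epithelial lists reached at most 1.39 CPM, and all 5 neuronal and all 4 epithelial markers were at 0. Uniquely mapped reads outside genes made up 59.1% and 57.4% in LPS libraries, against 53.0% and 51.8% in untreated libraries. The part of these differences in the results that follow was not tested. In bulk RNA, fewer cells of a type and less RNA per cell cannot be told apart. The labels do not say that libraries came from separate cultures, so p-values measure the spread between these libraries, which may be technical. Expression is given as CPM, the read count scaled to a common total with TMM factors. Changes are edgeR quasi-likelihood log2 fold changes of LPS over untreated cells with a standard error (SE), and a gene passed at a Benjamini-Hochberg adjusted p below 0.05 over all 9992 genes tested.

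Because many cytosolic synthetase genes are known ATF4 targets, the RefSeq promoter windows (build GRCm38.p6, 250 bases before to 50 after the annotated start) were searched for TGATGNAA, the core of the composite site known to bind ATF4 with a C/EBP partner, and for CACGTG, the E-box core, on both strands. Windows of a whole chromosome were left out before the search, for the synthetases and for the background alike. Among the rest, windows were found for 26 of the 35 genes by symbol. None was used for Cars, Hars, Lars, Mars, Nars, Rars, Vars, Wars and Hars2. TGATGNAA was present in 5 of the 26 genes, all of them cytosolic (Aars, Gars, Iars, Tars and Yars), against 4.51% of all 27025 genes with a window. CACGTG was present in 5 of the 26 (Aars, Iars, Tars, Farsb and Ears2), against 8.09% of all genes. The 2 motifs did not overlap in these windows. A match is a description of the letters and not a measured binding site. The windows with TGATGNAA are shown because these genes are compared with the rest further on, and capitals mark matches to either motif on either strand.
Gars, chr6:55037751-55038050, plus strand: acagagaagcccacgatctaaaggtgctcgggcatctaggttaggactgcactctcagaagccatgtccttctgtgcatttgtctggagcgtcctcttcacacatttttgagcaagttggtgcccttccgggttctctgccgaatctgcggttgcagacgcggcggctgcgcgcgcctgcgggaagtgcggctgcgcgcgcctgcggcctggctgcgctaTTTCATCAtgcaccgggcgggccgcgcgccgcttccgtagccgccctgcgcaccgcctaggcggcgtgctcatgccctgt
Iars, chr13:49681880-49682179, plus strand: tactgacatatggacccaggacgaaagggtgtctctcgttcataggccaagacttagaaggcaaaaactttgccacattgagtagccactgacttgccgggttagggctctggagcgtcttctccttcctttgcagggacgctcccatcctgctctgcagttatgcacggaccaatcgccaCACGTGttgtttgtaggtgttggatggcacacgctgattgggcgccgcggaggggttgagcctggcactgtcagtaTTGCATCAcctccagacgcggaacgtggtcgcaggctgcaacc
Yars, chr4:129189653-129189952, plus strand: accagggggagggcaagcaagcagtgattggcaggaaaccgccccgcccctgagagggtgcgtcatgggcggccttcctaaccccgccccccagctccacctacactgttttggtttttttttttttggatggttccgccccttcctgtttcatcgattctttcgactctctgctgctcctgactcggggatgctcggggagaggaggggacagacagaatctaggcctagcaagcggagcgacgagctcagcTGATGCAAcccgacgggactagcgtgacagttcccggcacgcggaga
Aars, chr8:111033592-111033891, plus strand: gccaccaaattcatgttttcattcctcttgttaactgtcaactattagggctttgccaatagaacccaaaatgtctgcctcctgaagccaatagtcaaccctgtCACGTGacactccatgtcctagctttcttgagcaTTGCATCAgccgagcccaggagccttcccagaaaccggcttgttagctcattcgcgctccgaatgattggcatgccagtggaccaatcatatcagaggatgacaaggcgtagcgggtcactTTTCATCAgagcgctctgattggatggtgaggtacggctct
Tars, chr15:11399609-11399908, minus strand: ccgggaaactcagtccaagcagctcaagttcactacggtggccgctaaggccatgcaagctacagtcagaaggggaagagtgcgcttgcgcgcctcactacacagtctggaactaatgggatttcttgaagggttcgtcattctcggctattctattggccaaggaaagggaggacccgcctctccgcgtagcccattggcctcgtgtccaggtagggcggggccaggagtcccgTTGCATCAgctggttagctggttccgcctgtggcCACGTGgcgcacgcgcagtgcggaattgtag
The match lay 30 bases upstream of the start in Gars and 15 bases upstream in Tars. It began at base 8 of the transcript in Iars and at base 4 in Yars, counted from the RefSeq start. Aars held 2 matches, 112 bases upstream and at base 10.

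Cytosolic synthetase mRNAs were expressed well above their mitochondrial counterparts. On the scale of CPM per kilobase of the longest coding transcript, which allows genes to be compared, the median level of the 20 cytosolic genes was 35.6 in LPS and 40.0 in untreated cells, and that of the 14 mitochondrial genes was 6.23 in LPS and 7.72 in untreated cells. Over the 4 libraries the highest cytosolic levels per kilobase belonged to Farsb (113) and Dars (104), which encode the beta subunit of the phenylalanine enzyme and the aspartate enzyme. The lowest cytosolic level was that of Tars, the threonine enzyme, at 3.43. Among the mitochondrial genes Tars2, the mitochondrial threonine enzyme, was highest at 28.1 and Vars2, the mitochondrial valine enzyme, lowest at 1.98. With the median in place of the longest coding transcript length, the medians over the 4 libraries moved from 42.2 to 52.4 for cytosolic and from 7.63 to 8.50 for mitochondrial genes, and Qars, the glutamine enzyme, moved from 71.2 to 304, so the order of single genes depends on the isoform assumed.

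When enzymes of the same amino acid were set side by side (15 pairings, with Farsa and Farsb both paired to Fars2), the cytosolic gene had the higher level per kilobase in 13 pairings in LPS and 14 in untreated cells. Threonine was reversed in both groups. Tars counted 49 and 45 reads in LPS and 59 and 59 in untreated libraries, while Tars2 counted 230 and 239 in LPS and 512 and 508 in untreated libraries. The level per kilobase of Tars was thus 0.162 times that of Tars2 in LPS and 0.0933 times in untreated cells. Nars, the asparagine enzyme, lay at the other end, at 36.3 times the level of Nars2 in LPS and 23.8 times in untreated cells. The cysteine pair was close to even, with Cars 0.934 times Cars2 in LPS and 1.30 times in untreated cells.

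**Figure D1:**
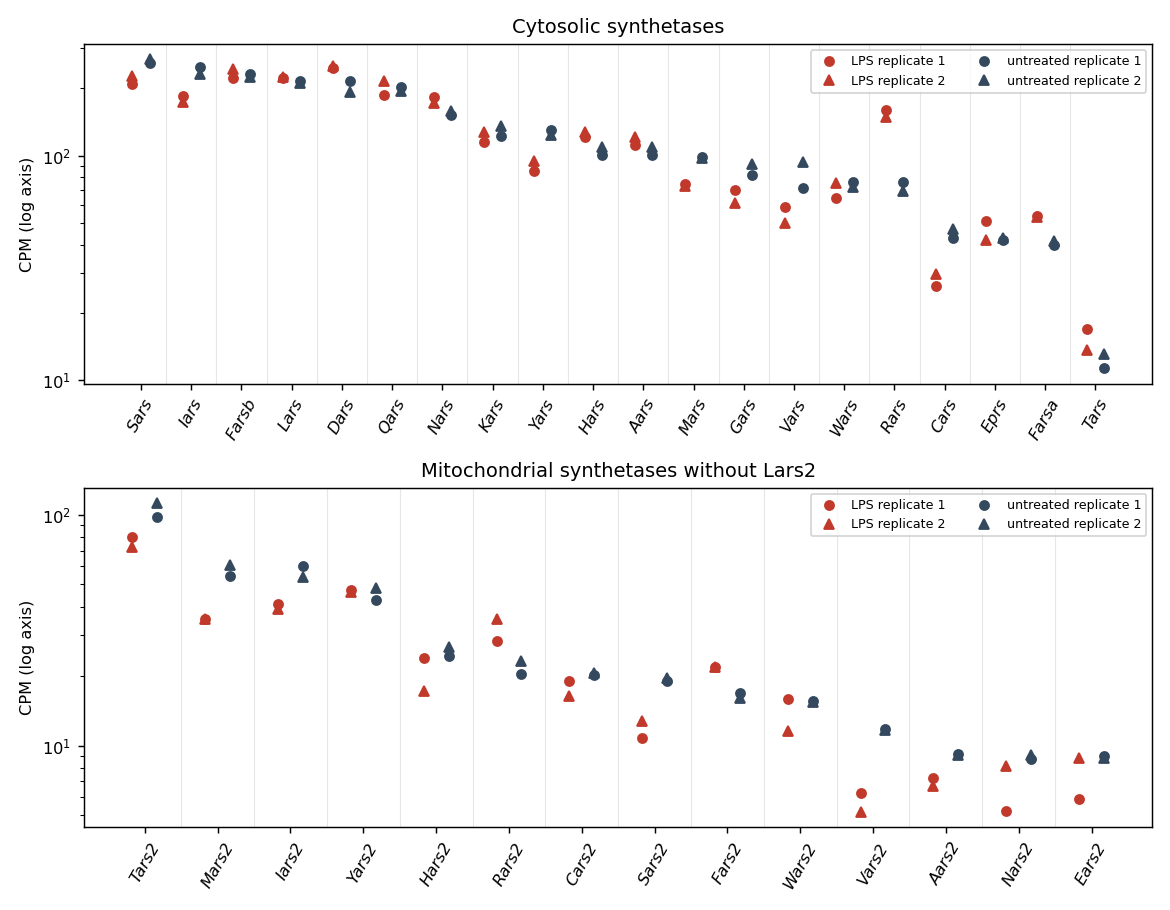
Expression of the 34 synthetase genes other than Lars2 in each library, as CPM on a log axis, with LPS libraries in red left of untreated libraries in dark blue and circles and triangles for replicates 1 and 2. Cytosolic genes are in the upper panel and mitochondrial genes in the lower panel, each with its own axis. Rars stands higher in both LPS libraries than in both untreated ones, and Tars has the lowest CPM of the cytosolic genes. CPM is not per length, so heights do not compare the levels of different genes.

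Cytosolic synthetase genes moved both ways after LPS, and most mitochondrial genes that passed were lower. Of the 20 cytosolic genes, 4 rose (Rars, Farsa, Dars and Hars), 7 fell (Cars, Vars, Yars, Iars, Mars, Gars and Sars) and 9 did not pass. Of the 14 mitochondrial genes, 1 rose (Rars2), 5 fell (Vars2, Sars2, Mars2, Iars2 and Tars2) and 8 did not pass. The background was high, since 51.9% of all genes tested passed, 26.6% higher and 25.3% lower. The shares that fell were 35% of cytosolic and 35.7% of mitochondrial genes, and the shares that rose were 20% and 7.14%, on 20 and 14 genes. The median log2 fold change was 0.03 for the cytosolic and -0.36 for the mitochondrial genes, beside 0.00 for all genes tested. The sign of the cytosolic median is not stable, and it was -0.06 without LPS replicate 2 and 0.00 (just below 0) without untreated replicate 2.

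Individual shifts were mostly small. Both LPS libraries lay below both untreated libraries in 7 cytosolic and 10 mitochondrial genes, and above them in 8 cytosolic and 2 mitochondrial genes. Among all genes tested 37.6% lay wholly below and 37.5% wholly above. A fall of at least 0.5 on the log2 scale that also passed was seen in 2 cytosolic and 4 mitochondrial genes, against 18.6% of all genes. The 2 replicates of a gene differed by a median of 0.14 on the log2 scale between LPS libraries and 0.07 between untreated libraries over the 34 genes.

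Scaling matters for sets of this kind. TMM takes most genes as unmoved, whereas scaling by library size alone put the median of all genes at -0.36 and made 12 of 20 cytosolic and 12 of 14 mitochondrial genes fall, with 47.8% of all genes lower and Rars as the 1 synthetase of the 34 still higher. DESeq2 was stricter, with 5 cytosolic and 2 mitochondrial genes lower against 12.8% of genes, and Rars higher. After correction for GC content 4 cytosolic and 4 mitochondrial genes fell, 8 of 34, against 22.7% of all genes, so the share was near the background. Among the 18 synthetase genes that passed, Lars2 included, 7 kept their call and direction under each of the 15 alternatives (14 for Lars2, itself left out in 1): Rars and Lars2, which rose, and Cars, Iars, Yars, Mars2 and Tars2, which fell.

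**Figure D2:**
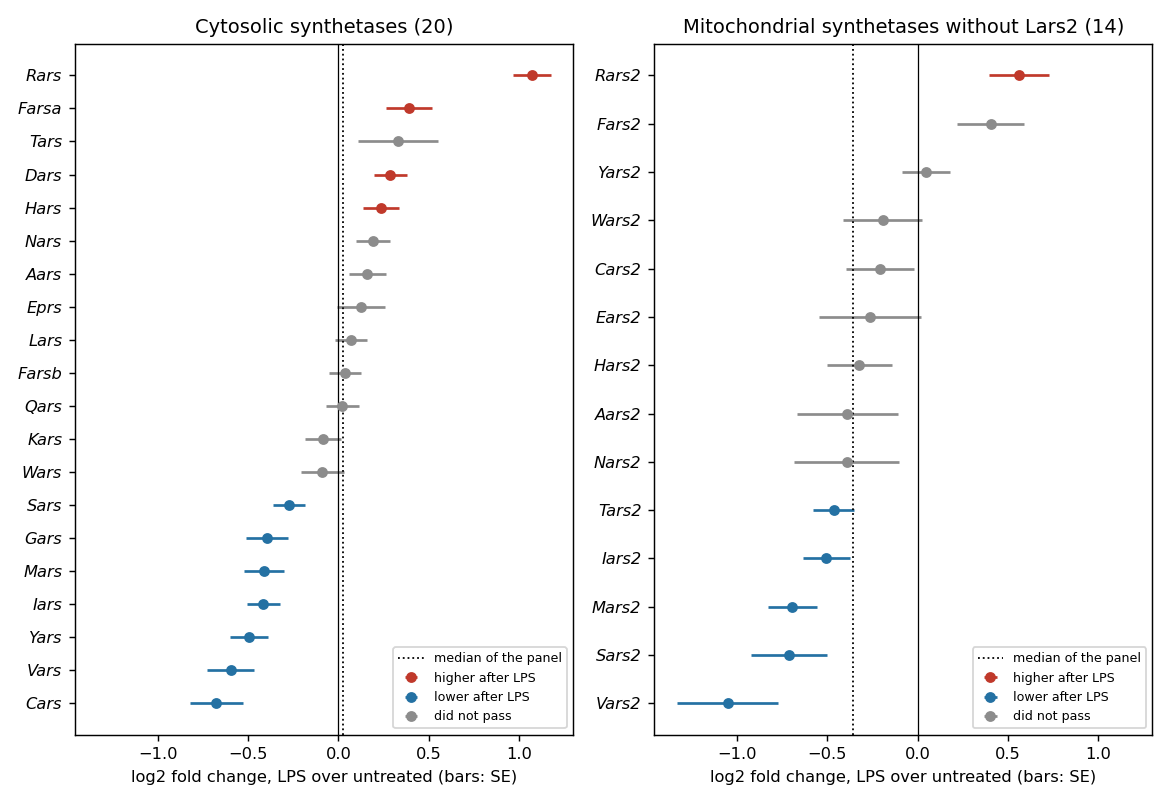
Log2 fold change of LPS over untreated cells with its standard error for the 20 cytosolic genes (left) and the 14 mitochondrial genes without Lars2 (right), red where the gene passed higher, blue where it passed lower and grey where it did not pass. The dotted line is the panel's median, 0.03 on the left and -0.36 on the right, and Rars and Rars2 head both panels.

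For arginine, the cytosolic and the mitochondrial gene both rose. Rars, whose product charges cytosolic arginine transfer RNA within the multi-synthetase complex, was at 159 and 148 CPM in the LPS libraries, against 76.1 and 69.7 CPM in the untreated libraries. Both LPS libraries lay far above both untreated ones. The rise was 2.10-fold (log2 fold change 1.07, SE 0.10, edgeR adjusted p = 1.6e-12), and this log2 value ranged from 0.71 to 1.13 over the alternatives. Rars2, the mitochondrial arginine enzyme, was at 28.4 and 35.5 CPM in LPS libraries, against 20.5 and 23.2 CPM in untreated libraries. Its groups did not overlap, but the LPS libraries differed from each other more than the untreated ones. The rise was 1.48-fold (log2 fold change 0.56, SE 0.16, edgeR adjusted p = 0.0037) and was lost with DESeq2 (adjusted p = 0.131), with scaling by library size (0.301), without LPS replicate 2 (0.110) and without untreated replicate 1 (0.0825).

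The other cytosolic risers moved little. Farsa, the alpha subunit of the phenylalanine enzyme, averaged 53.4 ± 0.415 CPM in LPS and 40.8 ± 1.43 CPM in untreated cells (SD, n = 2 each), with log2 fold change 0.39 (SE 0.13). Its partner subunit gene Farsb was at 232 ± 14.4 CPM in LPS and 227 ± 3.97 CPM in untreated cells and did not pass (log2 fold change 0.03, edgeR adjusted p = 0.766). Dars had log2 fold change 0.29 and Hars, the histidine enzyme, 0.24. These 3 calls are fragile. Each was lost with DESeq2 (adjusted p = 0.166 for Farsa, 0.0538 for Dars and 0.253 for Hars) and with scaling by library size, where Dars turned to -0.07 and Hars to -0.12. The call was also lost without untreated replicate 2 for all 3 (0.0562, 0.210 and 0.110), without untreated replicate 1 for Farsa and Hars (0.121 and 0.368) and without LPS replicate 2 for Hars (0.141). The Dars value was 0.04 after GC correction, and the Hars call was lost under 8 of the 15 alternatives in all.

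The largest cytosolic falls were in Cars and Vars. Cars, the cysteine enzyme, was at 26.3 and 29.8 CPM in LPS libraries, against 43.0 and 47.1 CPM in untreated libraries. Both LPS libraries lay well below both untreated ones. The log2 fold change was -0.68 (SE 0.15, edgeR adjusted p = 1.2e-04). Cars2, its mitochondrial counterpart, was at 19.1 and 16.4 CPM in LPS libraries, against 20.3 and 20.6 CPM in untreated libraries, which did not pass (log2 fold change -0.21, edgeR adjusted p = 0.365). Vars, the valine enzyme, was at 58.9 and 50.1 CPM in LPS libraries, against 71.7 and 93.3 CPM in untreated libraries. The groups did not overlap, and the untreated libraries were wide apart. The log2 fold change was -0.60 (SE 0.13, edgeR adjusted p = 1.8e-04), and it was -0.18 after GC correction, where it did not pass (0.228). Vars has the highest GC content of the set, 60.9%.

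Valine was also the amino acid whose mitochondrial enzyme fell most. Vars2 had 18 and 17 reads (6.24 and 5.16 CPM) in LPS libraries, against 62 and 53 reads (11.9 and 11.7 CPM) in untreated libraries. Replicates lay close together, and the LPS level was 48.2% of the untreated one. The log2 fold change was -1.05 (SE 0.28, edgeR adjusted p = 0.0015), lost with DESeq2 (0.0863). This was the widest SE among the synthetase genes that passed.

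The other mitochondrial genes with falls of more than 0.5 on the log2 scale were Mars2, Sars2 and Iars2. Mars2, the mitochondrial methionine enzyme, was at 35.3 and 35.5 CPM in LPS libraries, against 54.1 and 60.8 CPM in untreated libraries, a clear separation. Its log2 fold change was -0.69 (SE 0.13, edgeR adjusted p = 2.1e-05), and -0.999 after GC correction, Mars2 having the lowest GC content of the set (38.8%). The cytosolic methionine gene Mars fell too, with 74.5 and 72.9 CPM in LPS libraries against 98.1 and 98.0 CPM in untreated libraries. Its log2 fold change was -0.41 (SE 0.11, edgeR adjusted p = 0.0015), lost after GC correction (0.0608).

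Sars2, the mitochondrial serine enzyme, was at 10.7 and 12.8 CPM in LPS libraries, against 19.1 and 19.7 CPM in untreated libraries. The groups were apart, on 31 to 100 reads per library. The log2 fold change was -0.71 (SE 0.21, edgeR adjusted p = 0.0039), and the call was lost with DESeq2 (0.122) and after GC correction (0.206). Sars, the cytosolic serine enzyme, was at 209 and 225 CPM in LPS libraries, against 257 and 268 CPM in untreated libraries. The fall was small (log2 fold change -0.27, SE 0.09, edgeR adjusted p = 0.0086) and was lost with DESeq2 (0.0528), after GC correction (0.303) and without untreated replicate 2 (0.110).

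Iars2, the mitochondrial isoleucine enzyme, was at 41.2 and 39.2 CPM in LPS libraries, against 60.05 and 53.7 CPM in untreated libraries. Its cytosolic counterpart Iars, a member of the multi-synthetase complex, was at 184 and 174 CPM in LPS libraries, against 247 and 230 CPM in untreated libraries. Both genes were lower in each LPS library than in each untreated one. The log2 fold changes were -0.51 for Iars2 (SE 0.13, edgeR adjusted p = 0.0011) and -0.42 for Iars (SE 0.09, edgeR adjusted p = 1.3e-04). The Iars2 call was lost with DESeq2 (0.0560) and without untreated replicate 1 (0.0516).

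Yars, the tyrosine enzyme, fell to 89.7 ± 6.27 CPM in LPS cells, against 127 ± 3.84 CPM in untreated cells (SD, n = 2 each; log2 fold change -0.50). Gars, the glycine enzyme, fell to 66.0 ± 6.17 CPM in LPS cells, against 86.8 ± 6.44 CPM in untreated cells (-0.40). Gars did not pass with DESeq2 (0.0738) or without untreated replicate 2 (0.10). Tars2 fell by 0.47 on the log2 scale. Yars2, the mitochondrial tyrosine enzyme, did not pass (0.05). The remaining cytosolic genes that did not pass had log2 fold changes between -0.09 (Wars and Kars) and 0.33 (Tars). They include Eprs, the bifunctional glutamate and proline enzyme (0.13), Lars, the leucine enzyme (0.07), Qars (0.02), Nars (0.19) and Aars, the alanine enzyme (0.16). Aars passed higher after GC correction (log2 fold change 0.43) and was -0.20 when scaled by library size alone. The remaining mitochondrial genes, Aars2, Cars2, Ears2, Fars2, Hars2, Nars2 and Wars2, lay between -0.39 and 0.40. They were counted with 15 to 128 reads per library.

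Within pairs, the mitochondrial gene usually had the lower log2 fold change. This held in 11 of 15 pairings, with a median difference of mitochondrial minus cytosolic values of -0.39. The difference was largest for threonine (-0.79), where Tars2 fell and Tars did not pass. Tyrosine (0.54), cysteine (0.47) and both phenylalanine pairings (0.37 with Farsb and 0.01 with Farsa) went the other way. These differences were not tested. Summed over genes, cytosolic CPM was 2462 and 2517 in LPS libraries, against 2509 and 2526 in untreated libraries. Summed mitochondrial CPM without Lars2 was 348 and 338 in LPS libraries, against 411 and 435 in untreated libraries. The ratio of cytosolic to mitochondrial CPM was thus 7.07 and 7.45 in LPS libraries, against 6.11 and 5.80 in untreated libraries. That ratio is free of the scaling between libraries, and it was higher in both LPS libraries.

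**Figure D3:**
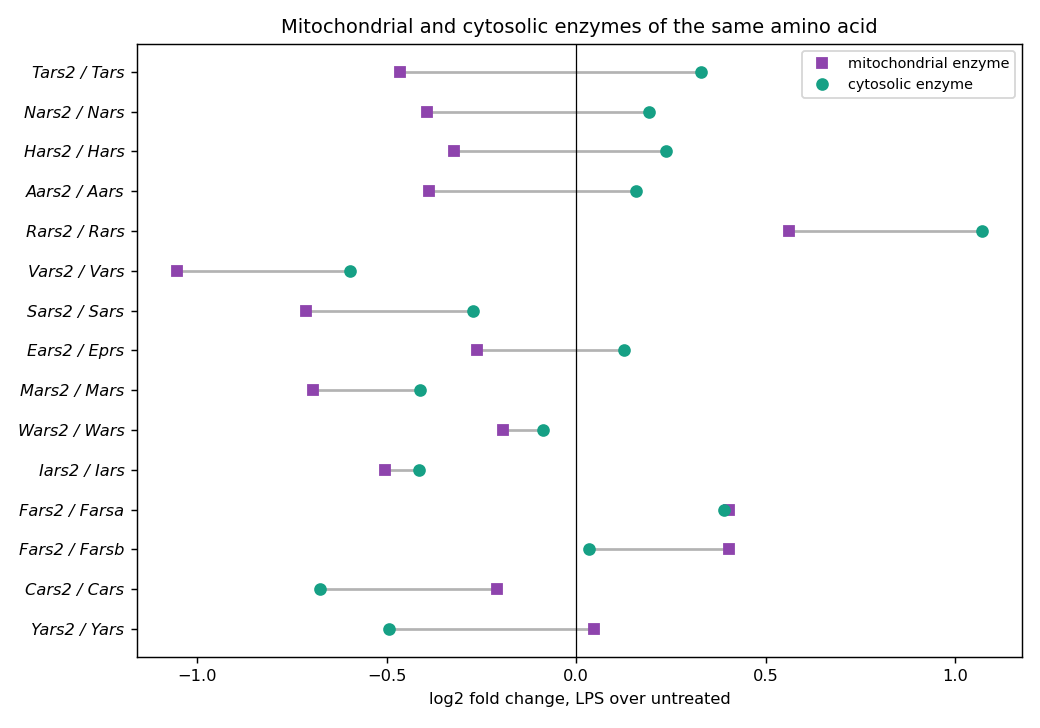
Log2 fold change of LPS over untreated cells for the mitochondrial (square) and the cytosolic (circle) enzyme of the same amino acid, joined by a line, for 15 pairings without leucine. Pairings are ordered by the difference, from threonine at the top (-0.79) to tyrosine at the bottom (0.54), and the square lies left of the circle in 11.

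Of the 8 enzymes of the multi-synthetase complex, Rars and Dars rose, Iars and Mars fell, and Eprs, Lars, Qars and Kars did not pass, with a median log2 fold change of 0.05. These counts are near the shares over all genes, 26.6% higher and 25.3% lower. Of its 3 scaffold genes 2 rose and 1 fell. Eef1e1, which encodes the scaffold AIMP3, rose to 164 ± 19.2 CPM in LPS cells, against 99.0 ± 8.27 CPM in untreated cells (SD, n = 2 each). Its log2 fold change was 0.73 with edgeR's adjusted p = 3.6e-08 (SE 0.10). Aimp2, the scaffold at the complex core, fell to 21.4 ± 0.166 CPM in LPS cells, against 41.9 ± 4.59 CPM in untreated cells, with log2 fold change -0.97 and edgeR's adjusted p = 1.2e-06 (SE 0.16). Aimp1 rose (0.29), a call lost under 9 of the 15 alternatives, among them DESeq2. The 12 cytosolic enzymes outside the complex had 2 higher and 5 lower, with a median of -0.03. By structural class, 2 of the 18 class I genes rose and 8 fell (Lars2 left out, the bifunctional Eprs counted in this class only). Of the 16 class II genes 3 rose and 4 fell, beside 26.6% higher and 25.3% lower over all genes. The class II share that fell is at the background.

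Among the genes with TGATGNAA in their window, Gars, Iars and Yars fell and Aars and Tars did not pass, with a median log2 fold change of -0.40 over the 5. Of the 7 cytosolic genes with a window and no match, 2 rose and 1 fell, with a median of 0.03. Over all genes 26.6% were higher and 25.3% lower. Both groups of synthetases are small, and the difference between them was not tested. On the ATF4 and amino acid supply list 23 genes were tested, of which 7 rose and 11 fell (median -0.36), beside the same shares over all genes. The list gave 5 higher and 11 lower with DESeq2, beside 12.8% of all genes lower. Atf4 itself was at 309 ± 29.1 CPM in LPS and 259 ± 2.47 CPM in untreated cells (log2 fold change 0.26, SE 0.09, edgeR adjusted p = 0.0128), lost with DESeq2, without either untreated replicate and without LPS replicate 2, and -0.10 with scaling by library size. Slc7a11, the cystine transporter gene, rose 7.77-fold and Eif2ak2, which encodes the interferon-induced kinase PKR, 9.65-fold. Shmt2, the mitochondrial serine hydroxymethyltransferase that makes glycine, fell to 33.1 ± 4.69 CPM in LPS cells, against 156 ± 13.8 CPM in untreated cells (log2 fold change -2.23). Aldh18a1, an enzyme of proline synthesis, fell by 2.00 on the log2 scale.

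Other members of that list, picked after their values were seen, also fell, under the edgeR test and all 15 alternatives. The serine synthesis genes Phgdh, Psat1 and Psph had log2 fold changes of -0.78, -0.78 and -0.82. The amino acid transporter genes Slc7a5 (large neutral amino acids), Slc1a5 (glutamine), Slc38a2 (small neutral amino acids) and Slc7a1 (cationic amino acids such as arginine) had -1.55, -1.27, -1.14 and -0.65. Slc1a4, a transporter of small neutral amino acids, had -1.54, and Asns, which makes asparagine and is a known ATF4 target, had -0.45. Of the other genes that rose, Ppp1r15a, which encodes the phosphatase subunit GADD34 that reverses eIF2 alpha phosphorylation, had 1.10 and held under all 15 alternatives. Eif2s1, which encodes eIF2 alpha, had 0.45 and Slc3a2, the partner chain of Slc7a5, had 0.36, and each was lost under 2 alternatives, scaling by library size among them. Mthfd2, a mitochondrial folate enzyme, had 0.30, was lost under 5 alternatives, DESeq2 among them, and was -0.06 with scaling by library size.

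Elongation factors act downstream of charging. Of 5 tested mitochondrial elongation factor genes, 4 fell and Guf1 did not pass, with a median of -0.38, beside 25.3% of all genes lower. Tufm, the mitochondrial EF-Tu, fell to 148 ± 2.61 CPM in LPS cells, against 193 ± 7.64 CPM in untreated cells (log2 fold change -0.38, SE 0.09, edgeR adjusted p = 5.7e-04), lost after GC correction (-0.13). Tsfm (-0.66), Gfm2 (-0.42) and Gfm1 (-0.27) fell as well, and 1 of the 5 fell with DESeq2, beside 12.8% of all genes. Of 4 genes for mitochondrial transamidation and formylation, which complete glutaminyl and formyl-methionyl transfer RNA, Gatb fell (-0.42, lost under 6 alternatives, DESeq2 among them) and 3 did not pass, with a median of -0.49. The share of these 4 genes that fell is at the background.

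In the cytosol, 3 of 7 elongation factor genes fell and 4 did not pass, with a median of -0.09, beside 25.3% of all genes lower. Eef2k, the kinase that brakes elongation, fell by 1.46 on the log2 scale, Eef1g by 0.61 and Eef2, the translocation factor, by 0.33, the last one lost after GC correction (-0.03). Of 18 tested genes of transfer RNA processing and export, 1 rose and 5 fell, with a median of -0.07. The share that fell is near the 25.3% of all genes, and 26.6% of all genes rose. Elac2, which trims transfer RNA 3′ ends, fell by 0.88 on the log2 scale. Tsen54, a subunit gene of the splicing endonuclease, fell by 0.78 on the log2 scale, and the call was lost with DESeq2 and after GC correction. Trnt1, which adds the CCA end, rose (0.43), and was lost with DESeq2, with scaling by library size, after GC correction and without untreated replicate 2. Of 7 genes that edit or release wrongly charged transfer RNA, 2 fell, Aarsd1 (-0.39) and Ptrh2 (-0.35), and neither passed with DESeq2. That share is also near the 25.3% of all genes that fell.

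**Figure D4:**
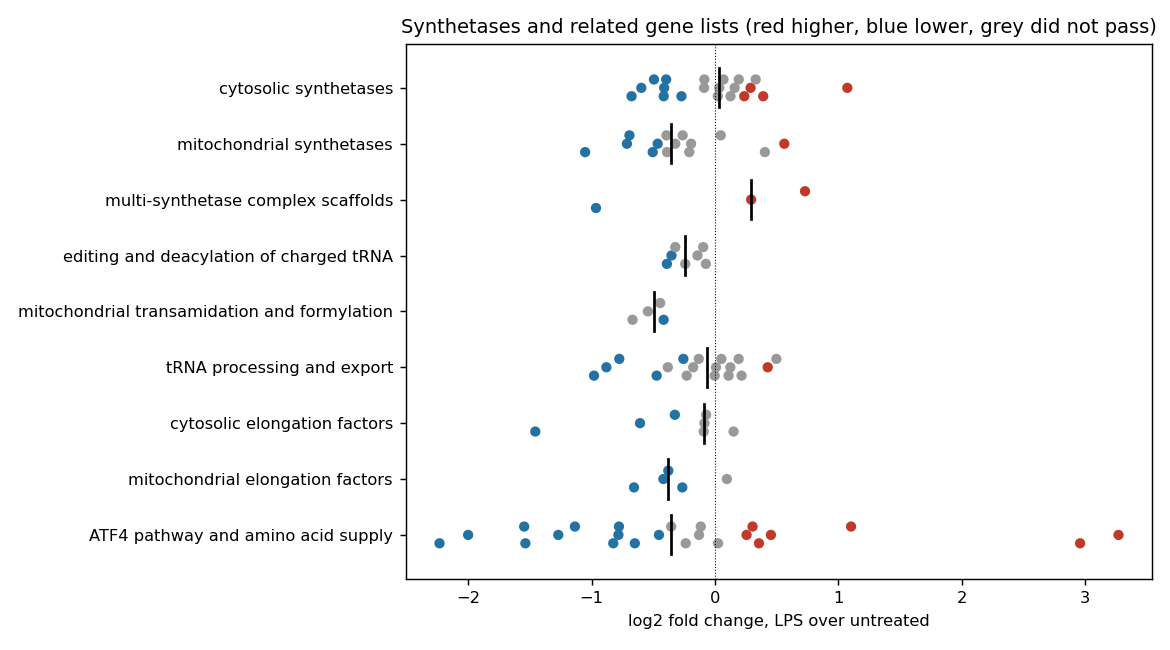
Log2 fold change of LPS over untreated cells for each tested gene of the synthetase sets and of 7 related lists, red where it passed higher, blue where it passed lower and grey where it did not pass, with a black bar at the list's median. Mitochondrial synthetases (-0.36) and mitochondrial elongation factors (-0.38) have medians left of cytosolic synthetases (0.03) and cytosolic elongation factors (-0.09).

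Wars did not pass, beside a rise of every interferon-type gene tested. It was at 64.5 and 75.6 CPM in LPS libraries, against 76.5 and 72.8 CPM in untreated libraries, and the groups overlapped. The log2 fold change was -0.09 (SE 0.12, edgeR adjusted p = 0.55), and between -0.45 and 0.09 over the alternatives, of which scaling by library size alone made it pass, lower. All 8 tested genes of the interferon-gamma type list rose, among them Tap1 (12.8-fold), beside 26.6% of all genes. Gbp2 had no more than 0.442 CPM in an untreated library and averaged 100 ± 2.75 CPM in LPS cells.

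Lars2, the mitochondrial leucine enzyme, was by far the most counted synthetase. It held 188533 and 199886 reads in the LPS libraries, against 107529 and 100008 reads in the untreated libraries, and it was the second most counted entry of each library. It took 5.79% (95% exact interval 5.76 to 5.82) and 5.33% (5.31 to 5.35) of gene counts in LPS libraries, against 2.39% (2.37 to 2.40) and 2.43% (2.42 to 2.45) in untreated libraries. These intervals cover counting error only. The other 34 genes together had 8107 and 9405 reads in LPS libraries, against 15266 and 13390 reads in untreated libraries. Lars2 thus had 23.3 and 21.3 times their sum in LPS libraries, against 7.04 and 7.47 times in untreated libraries.

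Lars2 rose 2.95-fold, with 65335 and 60683 CPM in LPS libraries, against 20564 and 22117 CPM in untreated libraries (log2 fold change 1.56, SE 0.09, edgeR adjusted p = 1.2e-20). Scaling by library size gave 1.21. Lars, the cytosolic leucine enzyme, was at 222 and 223 CPM in LPS libraries, against 214 and 211 CPM in untreated libraries, and did not pass (log2 fold change 0.07, edgeR adjusted p = 0.542). The structural RNA entry Rn45s, the ribosomal RNA precursor, moved in the same direction. It took 20.94% and 19.96% of gene counts in LPS libraries, against 14.6% and 19.0% in untreated libraries (log2 fold change 0.64, SE 0.12, edgeR adjusted p = 9.3e-05), and the value was 0.29 with scaling by library size. Mir6236, an entry annotated as a microRNA, took 0.743% and 0.708% in LPS libraries, against 0.457% and 0.417% in untreated libraries (log2 fold change 1.09, SE 0.08). Rpph1, the RNA of ribonuclease P, rose too (0.52), a call lost with scaling by library size (0.17, edgeR adjusted p = 0.109). Rmrp, the RNA of ribonuclease MRP, took 0.503% and 0.787% in LPS libraries, against 0.819% and 0.837% in untreated libraries, and did not pass (log2 fold change -0.0027, SE 0.29). Scaling by library size made Rmrp pass, lower (-0.36). For each Rn45s read there were 0.277 and 0.267 Lars2 reads in LPS libraries, against 0.164 and 0.128 in untreated libraries. The part of ribosomal RNA in the Lars2 count was not tested.

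**Figure D5:**
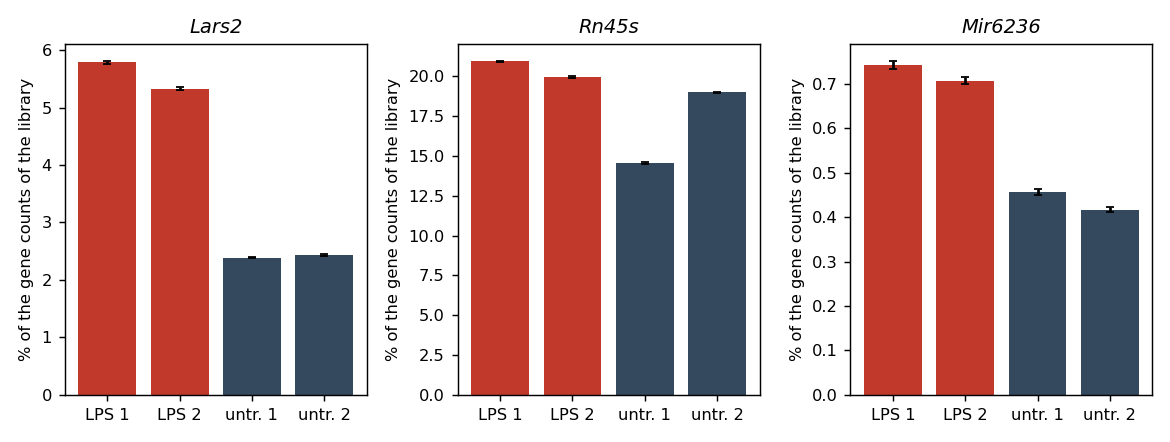
Share of the gene counts of each library taken by Lars2, Rn45s and Mir6236, in percent, with LPS libraries in red and untreated libraries in dark blue and 95% exact binomial intervals as error bars (counting error only). Lars2 is at 5.79% and 5.33% after LPS, against 2.39% and 2.43% without it, and both other entries are also higher in the LPS libraries.

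The Lars2 transcript was aligned with a few chosen GENCODE vM21 transcripts, not with all of them. Alignments shorter than 50 bases were left out. The longest coding transcript has 3894 bases, and those after the stop codon begin at base 2909. Bases 3278 to 3349, in that untranslated end, aligned to the noncoding gene Gm15564 at 98.6% identity over 72 bases, and bases 3233 to 3329 aligned to AA474408 at 94.8% identity. Counts per gene do not show where in Lars2 its reads fell, so its level is uncertain as a measure of the leucine enzyme's mRNA. Over all GENCODE vM21 transcripts, 3 of the 50-base words of Lars2 (0.078%) were also found in another gene, Gm15564. Rn45s was not among the transcripts chosen for alignment. Sequences absent from GENCODE vM21 were not searched, so overlap of Lars2 with them is unknown. Among the other members the share of 50-base words also found in transcripts of another gene was highest in Iars2 (36.6%, all with Rab3gap2), Aars (22.4%, with Exosc6), Cars2 (17.8%, with Naxd) and Farsb (10.1%, with Sgpp2). Hars and Hars2 share 146 such words. Reads on the strand opposite to the 35 genes were 24 and 61 in LPS libraries, against 54 and 25 in untreated libraries.

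Base composition varied with the response over the whole table. Over 4 bins of equal gene number, ordered by rising GC content, the median log2 fold change was 0.24, 0.08, -0.12 and -0.29. The 34 synthetase genes had medians of 0.21 (4 genes), -0.09 (13), -0.27 (12) and -0.60 (5). The median GC content was 49.8% in cytosolic and 47.9% in mitochondrial genes, beside 49.3% in all genes tested. After GC correction the medians were 0.00 for cytosolic and -0.28 for mitochondrial genes, beside 0.02 for all genes tested.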

How the data were processed

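Total RNA was sequenced after ribosomal depletion, as directional libraries, per the labels' protocols. Their extraction text names human cells although the organism and symbols are mouse. The deposited files hold raw read counts per gene from the authors, in STAR's gene count layout, with no normalisation or pooling. STAR 2.5.1, Trimmomatic 0.33, CASAVA 1.8.2 and DESeq2 are listed in the submitters' processing notes, as is build hg19. No annotation is named for the gene models. Since the build conflicts with the organism, gene coordinates of the files were not used.

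Reverse-strand counts were taken. The 4 summary lines (67.2% to 72.9% of reads) stayed out of library sizes. Of 12982 genes with a count, edgeR's filter kept 9992, tested with edgeR 4.0.16 (TMM, robust quasi-likelihood, treatment only) in R 4.3.3, with DESeq2 1.42.0 as an alternative. SE is the size of the log2 fold change over the square root of F. Lengths and GC content came from GENCODE vM21. On simulated data with a wider spread than these libraries, the fit recovered 7.58% of changes of 0.5 on the log2 scale. It recovered 70.4% of changes of 1.0 and 92.1% of changes of 1.5. Because the spread differed, these shares do not measure how many synthetase changes were missed here. Replicate libraries were not duplicates of one another (chi-square over its degrees of freedom 2.44 for LPS and 1.52 for untreated).

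Members, lists and tests were chosen with earlier results of these data known. Synthetases past the threshold with a log2 change of 0.5 or more, their partners and Lars2 are given by library, and up to 4 genes per other list by smallest p, apart from a few genes that are not reported here. Alternatives were other scalings, filters, strands, GC-corrected offsets, a replicate block, a table without 5 abundant entries, and leaving out each library.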

Additional observations from a re-analysis of the deposited data

How the results depend on the processing

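Deviations of same-numbered libraries correlated at -0.04 across genes. With 2 libraries per group, that value cannot show whether same-numbered libraries were paired. Replicate numbers were used as names only in the main fit. With the replicate block, 5171 genes passed, and 7 cytosolic synthetases fell and 4 rose while 5 mitochondrial ones fell and 1 rose, as without it. Of the 18 synthetase calls, 7 held under every alternative. Over all genes 3165 passed with DESeq2 (1760 higher, 1405 lower), and with scaling by library size 1379 were higher and 4778 lower. DESeq2 left 6 cytosolic and 2 mitochondrial synthetases past the threshold (1 cytosolic higher, 2 mitochondrial lower and 0 higher). Scaling by library size gave 12 cytosolic lower and 1 higher, and 12 mitochondrial past the threshold, 12 lower and 0 higher. Upper quartile scaling left 1 cytosolic higher. GC correction, with or without the replicate block, left 4 cytosolic lower and 2 mitochondrial higher. Leaving out 1 library at a time gave 6 to 11 cytosolic genes past the threshold, 1 to 4 of them higher, and 0 to 1 mitochondrial gene higher. Their cytosolic median ran from -0.0594 to 0.0455. It was -0.0684 with upper quartile scaling and -0.330 with library size, which put the mitochondrial median at -0.713. Without Rn45s in the total the Lars2 share was 7.32% and 6.66% in LPS libraries, against 2.80% and 3.00% in untreated libraries.

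The sign of these log2 fold changes turned: with library size Aars (-0.199), Dars (-0.0713), Eprs (-0.232), Farsb (-0.324), Hars (-0.120), Lars (-0.290), Nars (-0.165), Qars (-0.337), Tars (-0.0276) and Yars2 (-0.311); with upper quartile scaling Farsb (-0.0624), Lars (-0.0286), Qars (-0.0745) and Yars2 (-0.0507); with GC correction, alone and with the replicate block, Eprs (-0.0321 and -0.0306), Farsb (-0.0253 and -0.0279), Wars (0.0868 and 0.0847), Aars2 (0.000223 and 0.00639) and Yars2 (-0.0153 and -0.0185); and without the low-count filter Qars (-0.00154). Leaving out a library turned Eprs (-0.0160) and Wars (0.0170) without LPS replicate 1, Farsb (-0.0322), Qars (-0.0867) and Wars2 (0.0323) without LPS replicate 2, Yars2 (-0.0419) without untreated replicate 1 and Qars (-0.0129) without untreated replicate 2. Over these omissions Eprs ran from -0.0160 to 0.265, Farsb from -0.0322 to 0.0949, Qars from -0.0867 to 0.119, Wars from -0.213 to 0.0170, Wars2 from -0.433 to 0.0323 and Yars2 from -0.0419 to 0.119. For these sign changes and the shifts above the cause was not tested. Lone libraries were assumed to vary like the other group. Aars2, Ears2, Nars2, Tars and Vars2 had only 15 to 62 reads per library, with SEs of 0.22 to 0.29.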

Other observations

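Pars2 and Tarsl2 are related genes outside the set of 35, picked after their values were seen. Pars2, the mitochondrial proline enzyme, had 22 and 28 reads in LPS libraries, against 53 and 40 reads in untreated libraries, and did not pass (-0.24, edgeR adjusted p = 0.484). Tarsl2, a second threonine synthetase of the cytosol, had 61 and 60 reads in LPS libraries, against 147 and 106 reads in untreated libraries, and did not pass (-0.40, edgeR adjusted p = 0.0543). Its level per kilobase over the 4 libraries, 7.12, was above that of Tars (3.43) and below that of Tars2 (28.1).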
